A study of Mus musculus with 30 samples.

Results

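The 30 genes described here mark the red cell and megakaryocyte lineages: transcription factors, globin and haem genes, red cell surface proteins, membrane skeleton proteins and platelet receptors. They are a fixed list of names, and ChIP-seq peaks were given to them by position. A peak belonged to a gene when it overlapped the RefSeq gene span widened by 1 kb on each side, and otherwise to the nearest protein-coding gene end within 50 kb. Of the 30, 29 were placed in the annotation and analysed, out of 21887 protein-coding genes, and Ahsp was not analysed here. They held 741 of the 368503 peaks in 15 lists.

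The series profiled lymphoid cells of C57BL/6 mice carrying a floxed allele of Crebbp, which encodes CBP, an enzyme that acetylates histones. ChIP-seq lists were available for acetylation of histone H3 at lysine 27 (H3K27ac), lysine 18 (H3K18ac) and lysine 56 (H3K56ac), and for CBP itself. Each list gives the positions of the peaks of 1 library, without scores, so the measure used is peak length in kb. The other 15 of the 30 samples, RNA-seq and input, were not analysed here.

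The Crebbp-null LPD group is lymphoproliferative disease tissue of CBPfl/fl:Mx-Cre+ mice (genotype Crebbp-/-), taken as unsorted splenocytes, with 2 lists for each of 3 marks. Its counterpart is B220+ B cells sorted from spleens of CBPfl/fl:Mx-Cre- mice, labelled wild type, with 2 lists a mark and 1 CBP list. Crebbp-null progenitors are sorted Lin- IL7ra+ bone marrow cells of CBPfl/fl:Mx-Cre+ mice, and wild-type progenitors are the same cells of CBPfl/fl:Mx-Cre- mice, with 1 H3K27ac list each. All groups therefore carry the floxed allele, and Cre expression from the Mx promoter, which is active in many blood and other cells after induction, separates null from wild type. Genotype, disease and sorting all separate LPD from B cells, and their effects cannot be told apart. Nothing in the labels ties the replicates to separate mice, so the p-values measure only the spread between these libraries. In unsorted tissue the share of cells that carry a peak and the acetylation per cell cannot be told apart either.

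Red cell and megakaryocyte development share a set of transcription factors, in which GATA1 with its partner FOG1 (Zfpm1) acts in both lineages, KLF1 drives the red cell genes and NF-E2 serves globin and platelet genes. Maturing erythroblasts make globin, haem and a membrane skeleton of spectrin, ankyrin and protein 4.1 tied to the anion exchanger band 3, while megakaryocytes make platelet adhesion receptors and granule chemokines. The mouse spleen, unlike the human one, remains a site of red cell production in the adult. Acetylation of these histone residues accompanies active promoters and enhancers, and H3K18ac and H3K27ac are the residues most often tied to CBP and its paralogue p300.

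The lists differed in size. LPD lists covered 26.2 and 18.2 Mb in H3K27ac, against 27.1 and 26.4 Mb in B cells. In H3K18ac they covered 29.5 and 21.4 Mb in LPD and 13.3 and 14.01 Mb in B cells, and in H3K56ac 17.04 and 18.3 Mb in LPD and 10.6 and 9.44 Mb in B cells. Crebbp-null progenitors covered 6.32 Mb and wild-type progenitors 9.43 Mb, and the CBP list held 1000 peaks. Sequencing depth is unknown from these lists, so the main counts are set against the share of all protein-coding genes called by the same rule. Of 10 B cell marker genes, 9 to 10 had H3K27ac peaks in the LPD lists, 10 in each B cell list, and 8 in each progenitor list. Il7r, the receptor used to sort the progenitors, had a peak in both progenitor lists and in no LPD or B cell list. Peak length at Crebbp was 1.69 and 1.56 kb of H3K27ac in LPD against 1.76 and 1.82 kb in B cells, which does not check the deletion, because the deleted part of the gene is not given in the sources used here.

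Members fell into 3 sets by where peaks lay. No peak in any of the 15 lists was assigned to 9 of the 29, namely Gata1, Hbb-bs, Hbb-bt, Epor, Rhag, Pf4, Ppbp, Gp1ba and Gp1bb, against 40.9% of all protein-coding genes. At the other end, 6 members had a peak in all 14 acetylation lists, against 32.2% of all genes: Zfpm1, Gypc, Epb41, Tfrc, Fech and Itgb3. The remaining 14 had peaks in some lists, and 4 of them (Hba-a1, Alas2, Epb42 and Gp9) had peaks only in the first LPD list of H3K27ac. A peak in all 6 LPD lists was found at 13 members, against 45.0% of all genes, and in all 6 B cell lists at 8 members, against 38.3%. The member list as a whole was therefore not acetylated more often in LPD than genes in general, and named genes carry the results below.

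**Figure D1:**
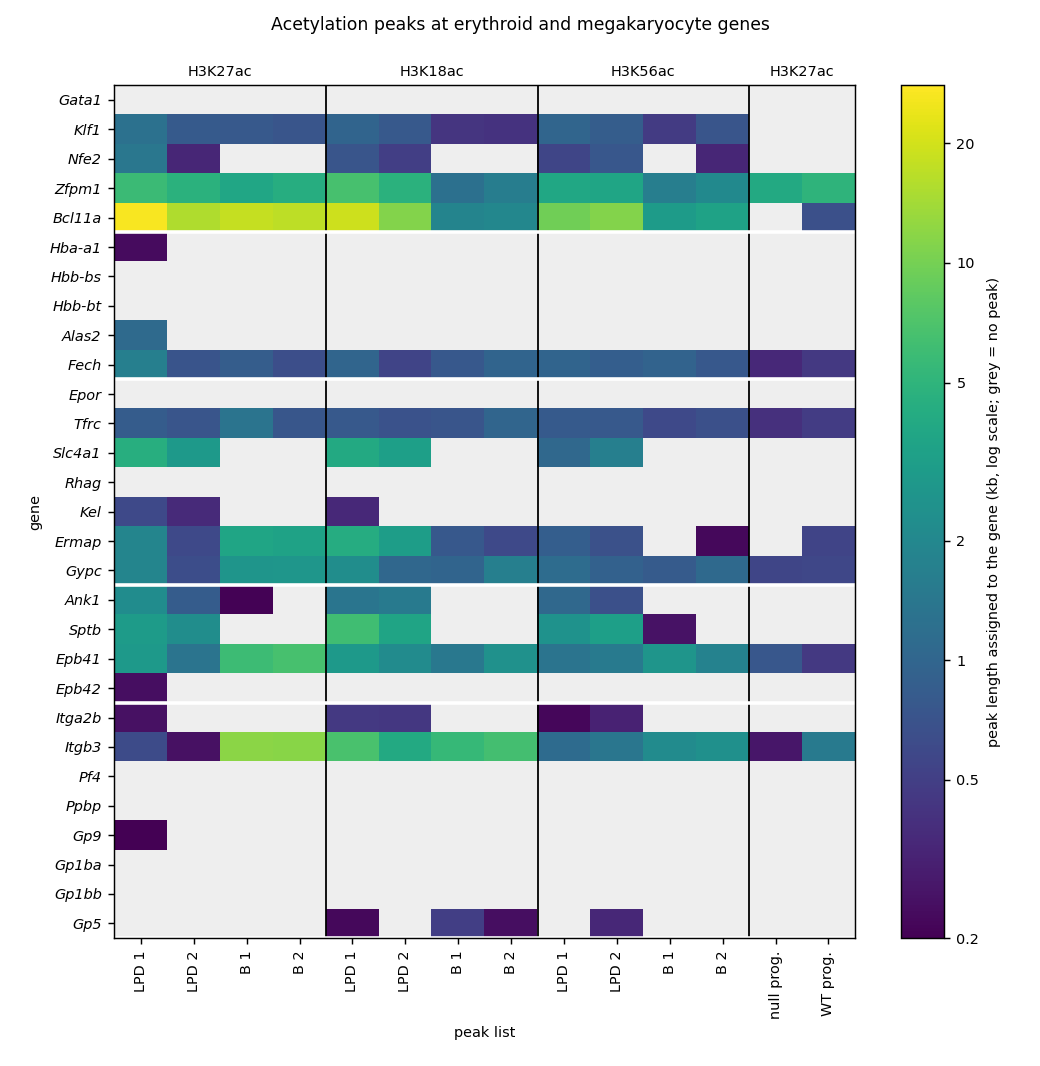
Peak length in kb (colour, log scale; grey where no peak was assigned) for 29 genes in rows, ordered from transcription factors at the top to platelet genes at the bottom with white lines between roles, and 14 acetylation lists in columns, LPD left of B cells in each mark and Crebbp-null progenitors left of wild-type progenitors. Slc4a1 is coloured in all 6 LPD columns and grey in all 6 B cell columns, and 9 rows are grey throughout.

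In H3K27ac, 14 members had a peak in both LPD lists (48.1% of all genes did) and 9 in both B cell lists (49.0%). In H3K18ac the counts were 14 in LPD (49.5%) and 10 in B cells (42.2%), and in H3K56ac 14 in LPD (49.0%) and 8 in B cells (42.9%). The members with peaks in both LPD lists of a mark and in neither B cell list were Nfe2, Slc4a1, Sptb and Kel in H3K27ac, 4 of 29 against 2.46% of all genes. In H3K18ac they were 5, Nfe2, Slc4a1, Ank1, Sptb and Itga2b, against 6.19%, and in H3K56ac 3, Slc4a1, Ank1 and Itga2b, against 4.6%. The reverse, peaks in B cell lists 1 and 2 and in no LPD list of the mark, occurred at 0 members in each mark, against 2.32% of all genes in H3K27ac, 1.16% in H3K18ac and 1.1% in H3K56ac. Of the 29, 16 had no peak in any B cell list, against 47.1% of all genes. No test was run on these counts.

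By peak length, the share of members longer in LPD was close to that of all genes in H3K18ac and H3K56ac. Both LPD lists were longer than either B cell list at 7 members in H3K27ac, or 24.1% against 12.6% of all genes. They were longer at 9 in H3K18ac (31.0% against 30%) and 10 in H3K56ac (34.5% against 36.2%). Both were shorter at 4 members in H3K27ac (21.3%), 1 in H3K18ac (6.71%) and 2 in H3K56ac (4.56%). Klf1, Nfe2, Zfpm1, Slc4a1, Ank1 and Sptb were longer in LPD in all 3 marks, and 0 members were shorter in all 3. Shares of the list were compared as group means only. By these, Klf1 was lower in LPD in H3K56ac (log2 ratio -0.22) and Zfpm1 was barely higher (0.16).

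Regions were the merged peaks of the 4 lists of a mark, called gained when both LPD lists held them and no B cell list did, lost when the reverse held, and kept when present in all 4. A gained region lay at 6 members in H3K27ac (10.9% of all genes), 11 in H3K18ac (21.2%) and 7 in H3K56ac (18.1%). A lost region lay at 5 members in H3K27ac (12.8% of all genes), 3 in H3K18ac (4.92%) and 4 in H3K56ac (4.21%). Counted per gene, 4 members, Slc4a1, Ank1, Sptb and Epb41, had at least 1 gained region in each mark, against 8.05% of all genes, and 2, Epb41 and Itgb3, had at least 1 lost region in each, against 1.91%. These need not be the same places. A single H3K27ac place gained in the other 2 marks as well was found at Slc4a1, Ank1 and Sptb but at 0 places of Epb41, and one lost in each mark at Epb41 but at 0 places of Itgb3. These counts moved with list size. When each mark's lists were trimmed of their narrowest peaks until all covered as much as the shortest one, gained regions lay at 9 members in H3K27ac (12.6% of all genes), 1 in H3K18ac (3.76%) and 0 in H3K56ac (2.93%), and lost regions at 2 (4.03%), 6 (24.3%) and 6 (20.8%) members of these marks in turn. Without the second LPD list of H3K27ac, the shorter of its pair, the rule needed only the first and 15 members had a gained region. The share of all genes under that looser rule was not computed, so this count has no background.

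Promoter sequence is shown for members with a listed start where the promoter overlapped acetylation peaks in at least 1 list. They include ones where LPD and B cells differ (Sptb, Bcl11a, Epb41) and ones where they hardly do (Zfpm1, Tfrc). Overlap was counted over a longer stretch that also holds bases after the start, so it need not fall in the printed bases. The sequences are from RefSeq on GRCm38.p6, the mm10 build of the lists, 5′ to 3′ on the gene's own strand, and cover the 250 bases before the start. They lie at chr12:76710548-76710797 (minus strand) for Sptb, chr4:132075314-132075563 (minus) for the upstream start of Epb41, chr4:132049079-132049328 (minus) for its downstream start, chr4:119189996-119190245 (minus) for Ermap, chr11:24080445-24080694 (plus) for Bcl11a, chr8:122281891-122282140 (plus) for Zfpm1 and chr16:32608646-32608895 (plus) for Tfrc. Around the printed Tfrc start, peaks of 4 LPD, 3 B cell and 0 progenitor lists overlapped. Tfrc has a second listed start, whose window at chr16:32608872-32609121 is not printed. There, peaks of all 6 LPD lists, all 6 B cell lists and both progenitor lists overlapped. Capitals mark matches on either strand to GATA factor words or to the word CCNCNCCC, which KLF factors bind. The GATA words searched were AGATAA, then the same word ending in G, namely AGATAG, and the forms starting with T, which are TGATAA and, ending in G, TGATAG. Adjoining matches of the KLF word can run together, and no match of one kind overlapped the other.
Sptb: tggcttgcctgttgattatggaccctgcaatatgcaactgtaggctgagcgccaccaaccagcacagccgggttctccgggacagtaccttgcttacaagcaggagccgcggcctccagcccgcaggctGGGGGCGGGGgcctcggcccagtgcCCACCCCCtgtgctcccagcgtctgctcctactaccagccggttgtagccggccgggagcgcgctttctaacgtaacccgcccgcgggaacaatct
Epb41 upstream start: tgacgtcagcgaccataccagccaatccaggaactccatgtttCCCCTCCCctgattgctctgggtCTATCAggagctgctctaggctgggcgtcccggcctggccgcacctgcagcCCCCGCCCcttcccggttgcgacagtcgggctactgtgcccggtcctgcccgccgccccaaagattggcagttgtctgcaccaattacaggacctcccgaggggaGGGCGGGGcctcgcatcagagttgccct
Epb41 downstream start: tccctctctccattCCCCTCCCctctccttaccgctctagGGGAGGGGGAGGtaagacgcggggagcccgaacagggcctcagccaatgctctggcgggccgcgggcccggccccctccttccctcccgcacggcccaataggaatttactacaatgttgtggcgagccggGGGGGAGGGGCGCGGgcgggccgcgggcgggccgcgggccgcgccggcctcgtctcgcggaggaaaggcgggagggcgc
Ermap: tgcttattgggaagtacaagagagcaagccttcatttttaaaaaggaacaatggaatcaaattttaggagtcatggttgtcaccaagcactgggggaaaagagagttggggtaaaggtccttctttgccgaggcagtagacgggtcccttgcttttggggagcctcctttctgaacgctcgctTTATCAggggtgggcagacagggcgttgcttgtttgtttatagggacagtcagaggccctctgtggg
Bcl11a: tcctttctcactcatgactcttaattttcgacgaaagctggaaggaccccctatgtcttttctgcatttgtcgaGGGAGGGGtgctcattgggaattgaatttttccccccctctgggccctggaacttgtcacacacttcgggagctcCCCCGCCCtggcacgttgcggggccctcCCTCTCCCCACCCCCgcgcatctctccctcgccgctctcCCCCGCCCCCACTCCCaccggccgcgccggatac
Zfpm1: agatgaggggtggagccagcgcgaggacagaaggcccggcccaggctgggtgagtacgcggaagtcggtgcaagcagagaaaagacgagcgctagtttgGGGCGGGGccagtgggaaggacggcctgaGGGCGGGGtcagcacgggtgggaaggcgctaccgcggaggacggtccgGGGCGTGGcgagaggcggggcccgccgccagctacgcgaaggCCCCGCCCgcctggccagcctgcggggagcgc
Tfrc: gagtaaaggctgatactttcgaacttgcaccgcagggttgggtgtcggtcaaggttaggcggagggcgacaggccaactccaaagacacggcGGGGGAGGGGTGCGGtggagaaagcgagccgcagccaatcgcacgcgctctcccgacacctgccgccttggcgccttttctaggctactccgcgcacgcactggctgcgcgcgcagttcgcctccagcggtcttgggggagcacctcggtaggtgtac

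The GATA words were present in 23.6% and CCNCNCCC in 52.9% of 21263 promoter windows of that length in the genome. Of 23 members with a listed start, 13 had a GATA word and 13 had CCNCNCCC in at least 1 of 26 windows. A match is a description of letters, not of binding. The GATA words were in the windows of Epb41 (upstream start) and Ermap among the printed ones and in none of the other 5, while members without a peak in any list, such as Epor, Rhag and Gp1ba, also held them. Itgb3, Slc4a1, Gypc, Ank1, Fech and Nfe2 had no listed start.

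Among the transcription factors, Nfe2, Zfpm1 and Klf1 were longer in LPD in each mark and Bcl11a in H3K18ac and H3K56ac, and Gata1 had no peak. Nfe2 (the p45 subunit of NF-E2; chr15:103248212-103258403) had 1.42 and 0.337 kb of H3K27ac in LPD and 0 in both B cell lists. Its H3K18ac was 0.731 and 0.503 kb in LPD and 0 in both B cell lists, and its H3K56ac 0.567 and 0.771 kb in LPD against 0 and 0.343 kb in B cells. The groups did not overlap in any mark. A gained region of H3K27ac at chr15:103255040-103255659 and one of H3K18ac at chr15:103254994-103255724 lay inside the gene and overlapped each other, and neither progenitor list had a peak there.

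Bcl11a, the repressor of embryonic and fetal globin genes and a factor that B cell development also needs, carried the most peak length of any member in each of the 6 LPD lists (chr11:24076564-24173558). Its H3K27ac was 26.9 and 15.5 kb in LPD against 18.1 and 17.1 kb in B cells, and these overlapped. H3K18ac was 19.1 and 11.3 kb in LPD against 1.85 and 1.98 kb in B cells, a log2 ratio of 2.99, or 2.07 as a share of each list's length. H3K56ac was 9.60 and 11.2 kb in LPD against 3.01 and 3.43 kb in B cells, with log2 ratios of 1.69 and 0.86. The gene held 13 gained H3K18ac regions and 10 gained H3K56ac regions but 0 gained H3K27ac regions, where 13 were kept, and it had 1 lost region in H3K27ac and 1 in H3K56ac. With lists of equal length this pattern turned over, to 3 gained in H3K27ac, 1 gained and 1 lost in H3K18ac, and 0 gained and 3 lost in H3K56ac. The stretch around its start overlapped peaks in all 6 LPD lists and in 2 of 6 B cell lists, both of H3K27ac. That stretch holds the printed window and bases after the start.

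Zfpm1, the GATA1 cofactor FOG1, was acetylated everywhere, progenitors included. It had 5.81 and 4.65 kb of H3K27ac in LPD against 3.72 and 4.34 kb in B cells. H3K18ac was 6.60 and 4.68 kb in LPD against 1.25 and 1.63 kb in B cells, and H3K56ac 3.78 and 3.66 kb in LPD against 1.66 and 2.09 kb in B cells. The LPD lists were longer in each mark, with log2 ratios of 0.38, 1.97 and 0.99, against 0.66, 1.08 and 0.16 as a share of the list. Zfpm1 had 2 gained regions in H3K18ac, and 2 gained and 1 lost in H3K56ac. With lists of equal length it had 1 gained region in H3K27ac and 1 lost in H3K56ac.

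Klf1, the red cell factor that switches on adult beta-globin, was present in B cells as well as in LPD, as 1 kept region inside the gene at chr8:84902268-84903524 in H3K27ac. It had 1.26 and 0.818 kb of H3K27ac in LPD against 0.797 and 0.742 kb in B cells. H3K18ac was 0.982 and 0.799 kb in LPD against 0.430 and 0.409 kb in B cells, and H3K56ac 0.996 and 0.855 kb in LPD against 0.471 and 0.736 kb in B cells. The LPD values lay above the B cell values in all 3 marks, but as a share of the list H3K56ac was lower in LPD, at a log2 ratio of -0.22. No peak was listed in either progenitor group.

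The globin genes themselves carried almost nothing. Hbb-bs and Hbb-bt, the adult beta chains, had no peak in any list, and Hba-a1, an adult alpha chain, had a single peak of 0.229 kb in the first LPD list of H3K27ac, 1.585 kb outside the gene. Hba-a1 and Hba-a2, and likewise Hbb-bs and Hbb-bt, are near-identical pairs, and how reads with several placements were treated is not given in the sources used here. Alas2, the first enzyme of haem synthesis in erythroid cells, had 1.10 kb of H3K27ac in the first LPD list as 3 peaks that also lie by Apex2, and 0 in the second LPD list and in both B cell lists. Fech inserts iron into protoporphyrin to make haem in all cells. It had a kept region in each mark, with 1.69 and 0.726 kb of H3K27ac in LPD against 0.853 and 0.655 kb in B cells. Its H3K18ac was 0.998 and 0.554 kb in LPD against 0.787 and 0.992 kb in B cells, and its H3K56ac 0.983 and 0.876 kb in LPD against 0.968 and 0.775 kb in B cells. H3K27ac, H3K18ac and H3K56ac each overlapped between groups. Fech had 0.352 kb in Crebbp-null and 0.450 kb in wild-type progenitors.

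Places near both globin clusters were acetylated in LPD, unlike Hbb-bs and Hbb-bt, and they were not matched to mapped enhancers. Nprl3, a neighbour of the alpha-globin cluster whose introns hold its enhancers, is a gene outside the list that was named by the size of its gained regions. It had 8.57 and 3.67 kb of H3K27ac in LPD against 1.03 and 0.860 kb in B cells, and 6.77 and 4.08 kb of H3K18ac in LPD against 0.322 and 0 kb in B cells. Its largest gained H3K27ac region lay at chr11:32243068-32245612. H3K56ac was 2.30 and 3.32 kb in LPD against 0.483 and 0.430 kb in B cells, so LPD lay above B cells in each mark. Upstream of the embryonic gene Hbb-y, on the side of the beta-globin control region, 1 H3K27ac region at chr7:103860011-103860700 was gained, with 0.690 and 0.232 kb in LPD and 0 in both B cell lists. Gained H3K18ac regions lay at the same place and at chr7:103858742-103859098. Its H3K56ac was 0 in all LPD and B cell lists. With lists of equal length Hbb-y had no gained region in any mark, while Nprl3 still had one in H3K27ac and H3K18ac but not in H3K56ac. Hbb-y was singled out after its values were seen.

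The sharpest contrast was at Slc4a1, the gene of band 3, the anion exchanger and most abundant protein of the red cell membrane (chr11:102348820-102365281). It had 4.43 and 2.85 kb of H3K27ac in LPD and 0 in both B cell lists. H3K18ac was 4.03 and 3.28 kb in LPD and 0 in both B cell lists, and H3K56ac was 1.07 and 1.68 kb in LPD and 0 in both B cell lists. It was the 1 member with a peak in all 6 LPD lists and no B cell list, a pattern found in 1.44% of all genes, and neither progenitor list had a peak. With lists of equal length a gained H3K27ac region remained at Slc4a1, while in H3K18ac and H3K56ac it had none under that setting.

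The Slc4a1 peaks formed 2 groups. In H3K27ac, 4 gained regions lay between chr11:102362577 and 102366071, over the higher-coordinate end of the gene, and 1 more, of 1100 bp, at chr11:102375509-102376608, 10.2 kb outside it. All 5 overlapped gained H3K18ac regions, of which there were 6, and 1 of the 5 also overlapped gained H3K56ac. Both gained H3K56ac regions, at chr11:102375458-102375959 and chr11:102376132-102376540, were in the outside group.

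Other surface proteins differed among themselves. Kel, the Kell blood group peptidase, had 0.595 and 0.358 kb of H3K27ac in LPD and 0 in both B cell lists, with a gained region at chr6:41703867-41704258 just inside its start, and beyond that only 0.353 kb in 1 LPD list of H3K18ac. Rhag, a subunit of the Rh complex, and Epor, the erythropoietin receptor, had no peak. Tfrc, the transferrin receptor that dividing cells in general need, was kept in each mark at chr16:32608926-32609763 in H3K27ac, with 0.838 and 0.735 kb in LPD against 1.34 and 0.745 kb in B cells. H3K18ac was 0.788 and 0.696 kb in LPD against 0.732 and 1.002 kb in B cells, and H3K56ac 0.808 and 0.796 kb in LPD against 0.598 and 0.665 kb in B cells. The groups overlapped in H3K27ac and H3K18ac, and H3K56ac was higher in LPD but lower as a share of the list.

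Ermap, an immunoglobulin family protein of the red cell membrane that carries the Scianna blood group, went opposite ways in different marks. It had 1.88 and 0.598 kb of H3K27ac in LPD against 3.65 and 3.46 kb in B cells (log2 ratio -1.52, or -1.35 as a share of the list). H3K18ac was 4.26 and 3.13 kb in LPD against 0.774 and 0.593 kb in B cells (log2 ratio 2.43, or 1.54 as a share). H3K56ac was 0.880 and 0.680 kb in LPD against 0 and 0.222 kb in B cells. A region starting at chr4:119183796 was lost in H3K27ac, ending at 119184150, and gained in H3K18ac, ending at 119184449. A second gained H3K18ac region, chr4:119189519-119189935, lay just downstream of the start whose upstream sequence is printed. With lists of equal length Ermap had neither a gained nor a lost region in any mark. Gypc, the glycophorin that anchors protein 4.1, had 1.89 and 0.646 kb of H3K27ac in LPD against 2.62 and 2.66 kb in B cells. Its H3K18ac was 2.27 and 1.04 kb in LPD against 0.986 and 1.68 kb in B cells, and its H3K56ac 1.15 and 0.922 kb in LPD against 0.821 and 1.08 kb in B cells, both overlapping. It had 1 lost region in H3K27ac and 1 gained in H3K18ac.

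In the membrane skeleton, Sptb and Ank1 were acetylated almost only in LPD. Sptb encodes erythroid beta-spectrin (chr12:76580488-76710547) and had 2.99 and 2.24 kb of H3K27ac in LPD and 0 in both B cell lists. H3K18ac was 6.18 and 3.55 kb in LPD and 0 in both B cell lists, and H3K56ac 2.48 and 3.24 kb in LPD against 0.255 and 0 kb in B cells. Gained regions numbered 5, 6 and 4 in H3K27ac, H3K18ac and H3K56ac, and 4 of the 5 in H3K27ac overlapped gained regions of both other marks. They lay at the start and deep in the gene, the widest at chr12:76594055-76594948, 115.6 kb from the start. The stretch around the start, with the printed window and bases after it, overlapped peaks in all 6 LPD lists and 1 B cell list. With lists of equal length Sptb had 1 gained region in H3K27ac and 0 in the other 2 marks.

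Ank1 encodes ankyrin-1, which ties spectrin to band 3 (chr8:22974836-23150501). Its H3K27ac was 2.23 and 0.848 kb in LPD against 0.205 and 0 kb in B cells. H3K18ac was 1.38 and 1.51 kb in LPD and 0 in both B cell lists, and H3K56ac 1.05 and 0.669 kb in LPD and 0 in both B cell lists. The same intragenic place was gained in each mark, at chr8:23035070-23035720 in H3K27ac, chr8:23034900-23035777 in H3K18ac and chr8:23035081-23035749 in H3K56ac. With lists of equal length Ank1 had 0 gained regions in any mark, as did Nfe2, Kel, Ermap and Itga2b. Epb42, protein 4.2, had 0.242 kb in the first LPD list of H3K27ac and no other peak.

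**Figure D2:**
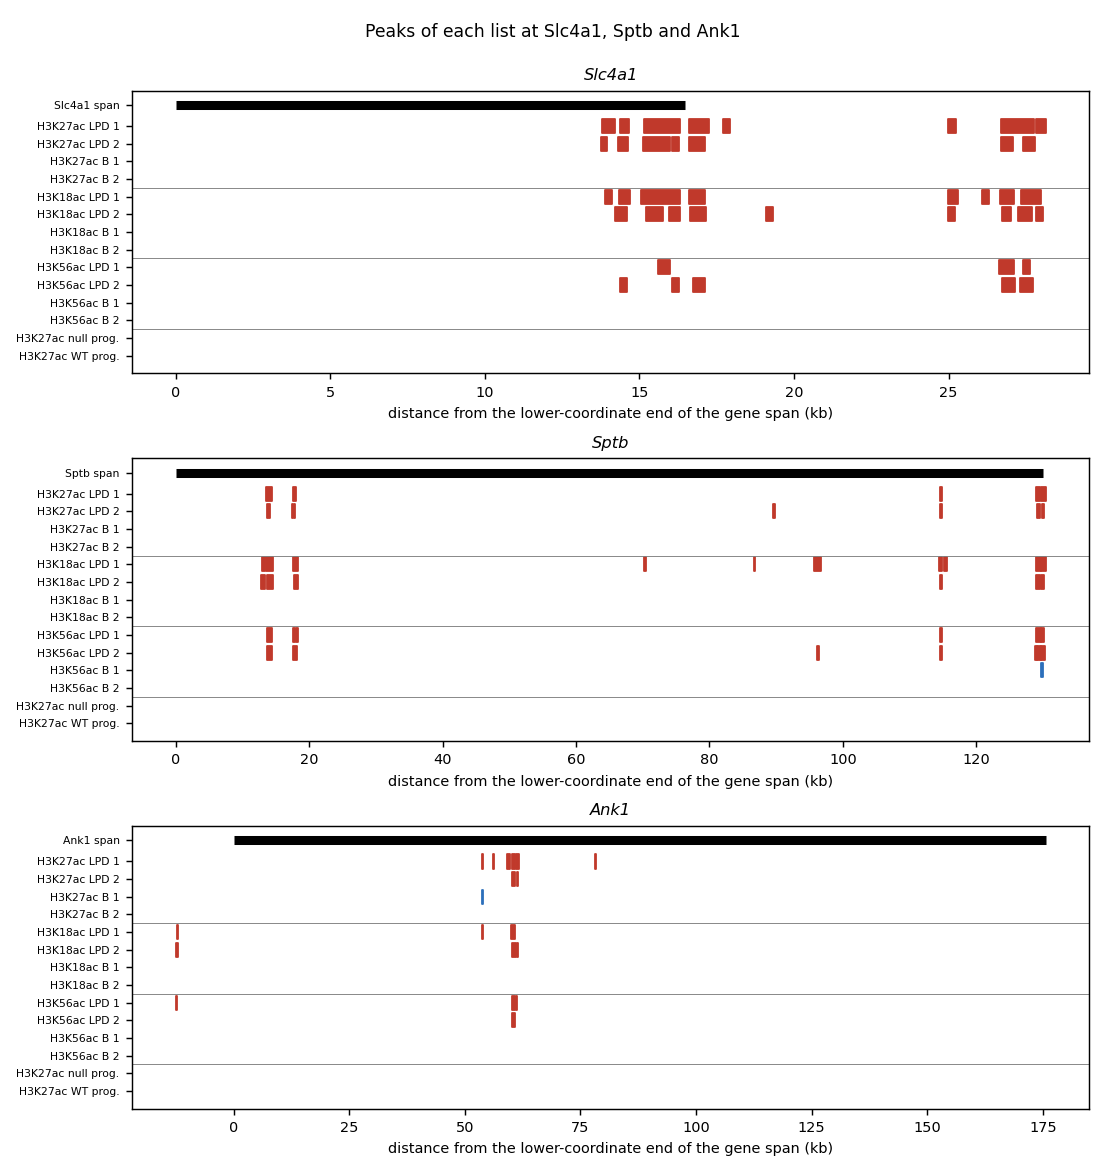
Peaks of each list at Slc4a1, Sptb and Ank1, as distance in kb from the lower-coordinate end of the gene span (black bar), with 1 row per list, LPD (red) above B cells (blue) in each mark and progenitors last. Peaks of different marks stack at the same places in LPD, and the blue rows are empty but for 1 H3K56ac peak at Sptb and 1 H3K27ac peak at Ank1.

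Epb41, protein 4.1R, is used in many cell types as well as in red cells and had peaks in all 14 acetylation lists, yet at different places (chr4:131923413-132075346). Its H3K27ac was 2.902 and 1.34 kb in LPD against 5.87 and 6.65 kb in B cells, a log2 ratio of -1.56. H3K18ac was 2.91 and 2.17 kb in LPD against 1.45 and 2.44 kb in B cells, which overlapped, and H3K56ac 1.33 and 1.51 kb in LPD against 2.65 and 1.78 kb in B cells. The stretch around the downstream start overlapped a peak in 0 of 6 LPD lists and 4 of 6 B cell lists. Around the upstream start, the stretch overlapped a peak in 6 of 6 LPD lists and 1 of 6 B cell lists. Both stretches hold bases after the start as well as the printed window. B cells were not without acetylation at the upstream start, since a kept H3K27ac region at chr4:132074044-132075295 lay just inside the gene from it. A lost H3K27ac region of 1408 bp covered the downstream start, at chr4:132048058-132049465, and the widest lost region, chr4:132038232-132041910, was lost in part in the other 2 marks too. A gained region outside the gene lay at chr4:132076972-132077416 in H3K27ac and at chr4:132077008-132077402 in H3K18ac.

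Among the 8 platelet genes, the 2 integrin chains went opposite ways in H3K56ac, and in each other mark 1 of them overlapped between groups. Itga2b, the alphaIIb chain of the fibrinogen receptor and an early megakaryocyte marker, had 0.248 and 0 kb of H3K27ac in LPD and 0 in both B cell lists. H3K18ac was 0.451 and 0.447 kb in LPD and 0 in both B cell lists, and H3K56ac 0.217 and 0.322 kb in LPD and 0 in both B cell lists. The gained region was the same in both marks, chr11:102467298-102467792 in H3K18ac and chr11:102467378-102467716 in H3K56ac, inside the gene.

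Itgb3, the beta3 chain that pairs with alphaIIb in platelets and with alphaV in other cells, had 0.624 and 0.252 kb of H3K27ac in LPD against 11.9 and 11.6 kb in B cells. The log2 ratio was -4.74. There were 6 lost regions, covering 8.09 kb in all, and 1 kept region that was shorter in LPD. The widest lost region lay at chr11:104629493-104632843 and the next widest at chr11:104607556-104610016, over the lower-coordinate end of the gene (chr11:104608000-104670476). H3K18ac was 6.84 and 3.999 kb in LPD against 5.48 and 6.38 kb in B cells, which overlapped, and H3K56ac 1.14 and 1.40 kb in LPD against 2.16 and 2.40 kb in B cells. Regions lost in H3K27ac and gained in H3K18ac at once lay at chr11:104644982-104646009 and chr11:104646101-104646499 by their H3K27ac positions. The H3K18ac gains at Itgb3 were not called with lists of equal length (7 lost regions), with peaks of at least 500 bp (1 lost) or when a larger part of a region had to be covered (2 lost). With the one at Ermap, 3 of the 13 lost H3K27ac regions at members overlapped a gained H3K18ac region, as did 2.9% of 6445 lost regions in the genome. The 13 of 15 gained H3K27ac regions that overlapped gained H3K18ac compare with 70.4% of 4628 in the genome.

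Gp5, a subunit of the von Willebrand factor receptor, had 0.222 and 0 kb of H3K18ac in LPD against 0.497 and 0.240 kb in B cells, and 0 and 0.350 kb of H3K56ac in LPD against 0 in both B cell lists. It had no H3K27ac peak. Gp9, of the same receptor, had 0.2 kb in the first LPD list of H3K27ac. The other receptor chains Gp1ba and Gp1bb and the granule chemokines Pf4 and Ppbp had no peak in any list. Summed over the 7 platelet genes other than Itgb3, H3K27ac was 0 to 0.448 kb in LPD and 0 in both B cell lists.

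**Figure D3:**
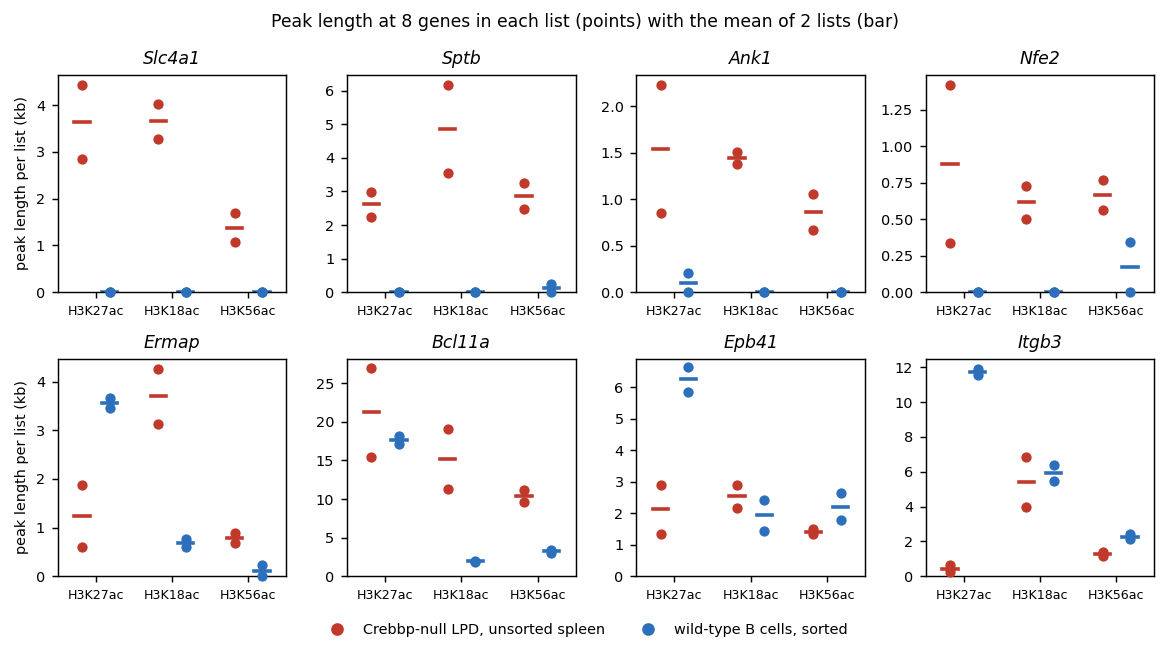
Peak length in kb of each list (points) and the mean of 2 lists (bar) at 8 genes in 3 marks, LPD (red) left of B cells (blue), with a vertical scale of its own for each gene. Slc4a1 and Sptb are at 0 in both B cell lists of H3K27ac and H3K18ac, while Itgb3 and Epb41 are lower in LPD in H3K27ac.

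In the 2 progenitor lists, 1 library each and so with no test, 6 members had a peak in Crebbp-null progenitors (39.0% of all genes) and 8 in wild-type progenitors (44.0%). The 6 were Zfpm1, Gypc, Epb41, Tfrc, Fech and Itgb3, and wild-type progenitors added Ermap and Bcl11a, a difference seen in 5.63% of all genes, while 0 members had a peak in Crebbp-null progenitors alone (0.612%). Zfpm1 carried 3.99 kb in Crebbp-null and 4.93 kb in wild-type progenitors. Itgb3 carried 0.270 kb as 1 peak in Crebbp-null progenitors and 1.52 kb as 4 peaks in wild-type progenitors, where all 4 overlapped B cell peaks and 1 overlapped LPD peaks. Bcl11a had 0.666 kb and Ermap 0.547 kb in wild-type progenitors, and both had none in Crebbp-null progenitors. Summed over members, Crebbp-null progenitors had 6.33 kb and wild-type progenitors 9.62 kb, a log2 ratio of -0.60 where the whole lists differed by -0.58. The members with LPD peaks and no B cell peak in H3K27ac, Nfe2, Slc4a1, Sptb and Kel, had none in either progenitor list.

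CBP peaks in B cells lay at 2 members, Itgb3 and Bcl11a, against 3.85% of all genes. The Itgb3 peak, chr11:104637153-104637391, fell inside the gene and overlapped acetylation peaks in 5 of 6 LPD lists, all 6 B cell lists and the wild-type progenitor list, but not the Crebbp-null progenitor list. It lay in a kept region of H3K27ac with 0.624 and 0.252 kb in LPD against 3.17 and 3.25 kb in B cells. The Bcl11a peak, chr11:24076295-24076538, ended 0.026 kb before the gene span and overlapped no acetylation peak in any of the 14 lists.

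**Figure D4:**
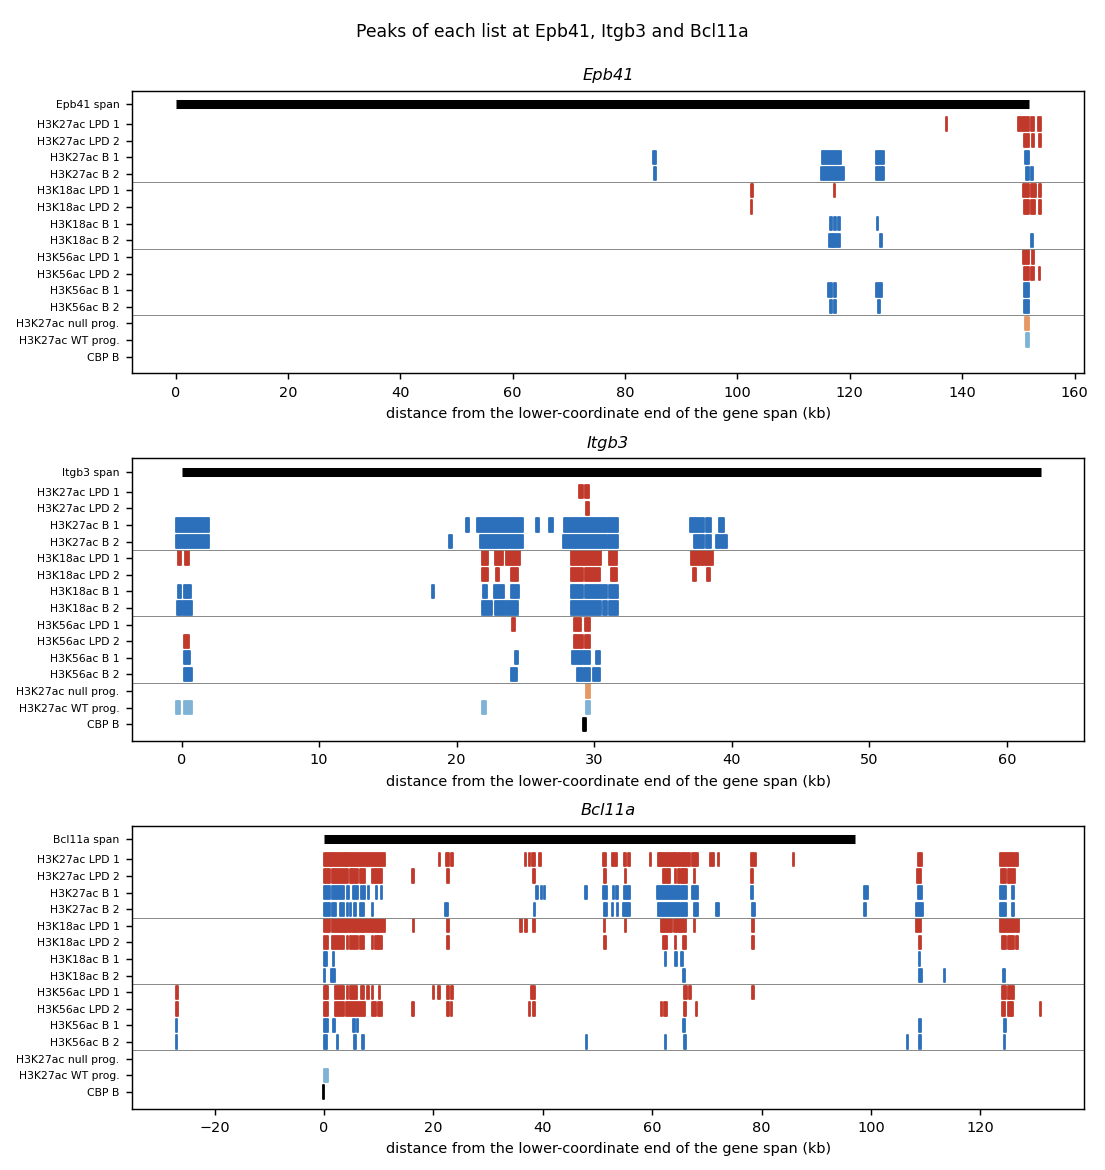
Peaks of each list at Epb41, Itgb3 and Bcl11a, drawn as distance in kb from the lower-coordinate end of the gene span (black bar), LPD (red) above B cells (blue), then progenitors (pale) and CBP in B cells (black). Itgb3 shows wide B cell H3K27ac peaks where LPD has 0.624 and 0.252 kb, and Bcl11a shows H3K18ac filled in LPD and sparse in B cells.

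Summed peak length at the 29 members did not separate the groups in H3K27ac, with 57.5 and 31.9 kb in LPD against 49.1 and 47.9 kb in B cells. The log2 ratio was -0.12 (exact two-sided permutation p = 1, 2 lists against 2), and as a share of the list it was 0.12. In H3K18ac the sums were 58.1 and 37.6 kb in LPD against 14.2 and 17.3 kb in B cells, and in H3K56ac 26.0 and 28.9 kb in LPD against 12.6 and 13.5 kb in B cells. The log2 ratios were 1.60 and 1.07, both with an exact p = 0.33, the smallest that 2 against 2 allows, so no difference could pass 0.05. Whole lists were longer in LPD by 0.90 and 0.82 on the log2 scale, and the members' ratios as a share of the list were 0.69 and 0.24. With lists of equal length the ratios were 0.17 in H3K27ac, 0.12 in H3K18ac and -0.76 in H3K56ac. Bcl11a alone made a large part of the sums, and without it the ratios were -0.40, 1.24 and 0.80 in H3K27ac, H3K18ac and H3K56ac. The median difference per gene was 0 kb for members and for all genes in each mark.

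A further 74 genes of the lineages, also listed with earlier results known, included 27 with a gained region in H3K27ac, 38 in H3K18ac and 22 in H3K56ac, and 14, 7 and 4 with a lost one. Of all genes 10.9%, 21.2% and 18.1% had a gained region in these marks, and 12.8%, 4.92% and 4.21% a lost one. With lists of equal length, gained regions lay at 21, 7 and 7 of the 74 and lost ones at 7, 18 and 21. That setting gave gained regions at 12.6%, 3.76% and 2.93% of all genes and lost ones at 4.03%, 24.3% and 20.8%. By gained H3K27ac sequence the leading genes included Itgb1, Nprl3, Bach1 and Gfi1b. Gfi1b, a repressor that both lineages need, had 2.998 and 1.76 kb of H3K27ac in LPD against 0 and 0.339 kb in B cells. By lost H3K27ac sequence they were Runx1, Fli1, Gfi1, Selp and Plek. Of these, Runx1, Fli1 and Plek also had a gained H3K27ac region, of 0.26, 0.524 and 0.52 kb. Selp, the platelet adhesion protein P-selectin, had 0 in both LPD lists against 2.67 and 2.74 kb in B cells. Tal1 and Tmod1, named after their values were seen, had H3K27ac in both LPD lists and in neither B cell list, Tal1 with 2.22 and 0.759 kb in LPD.

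**Figure D5:**
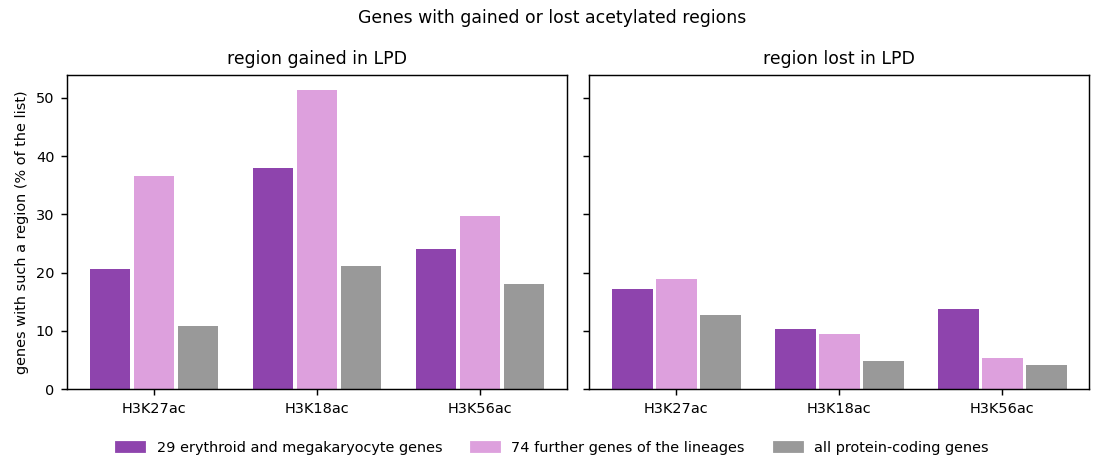
Percent of genes with a region gained (left) or lost (right) in LPD in each mark, for the 29 members, the 74 further genes and all protein-coding genes. For gained H3K27ac regions the bars stand at 20.7% of members and 10.9% of all genes, and no test was run on these shares.

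Markers of other cell types were read in the same lists, since unsorted spleen holds more than B cells. The 9 erythroid markers, which are members themselves, summed to 3.67 to 7.25 kb of H3K27ac in LPD and 0.742 to 0.797 kb in B cells, with Hbb-bs, Hbb-bt, Gata1 and Rhag at 0 in LPD. In the second LPD list the whole sum was Slc4a1 and Klf1, and in H3K18ac and H3K56ac the other 7 markers were at 0 in all LPD lists. The 10 myeloid markers summed to 1.95 to 3.97 kb of H3K27ac in LPD and 4.02 to 4.20 kb in B cells, but to 2.97 to 5.04 kb of H3K18ac in LPD and 0.467 to 0.644 kb in B cells. In H3K56ac the myeloid sum was 1.51 to 2.27 kb in LPD and 0 in both B cell lists. Mpo, Elane, Lyz2, S100a8, S100a9 and Cd14 were at 0 in all 6 LPD lists and in all B cell lists. Itgam, Csf3r and Fcgr3 had an LPD peak in each mark, and Csf1r had one in H3K18ac alone. In B cells Itgam and Csf3r had peaks in H3K27ac and H3K18ac, Fcgr3 in H3K27ac alone and Csf1r in no mark. The part of myeloid cells in these sums was not tested. The 10 T and NK cell markers summed to 5.09 to 7.83 kb of H3K27ac in LPD and 9.98 to 12.51 kb in B cells, with Cd3e, Cd3g, Cd8a, Ncr1 and Nkg7 at 0 in all LPD lists. Their sums were 10.3 to 13.3 kb of H3K18ac in LPD and 10.2 to 11.04 kb in B cells, and 6.28 to 7.72 kb of H3K56ac in LPD and 5.89 to 6.64 kb in B cells. The 10 B cell markers were likewise longer in LPD in H3K18ac and H3K56ac and shorter in H3K27ac, and their part in the members' sums was not tested. They had 76.7 to 112.9 kb of H3K27ac in LPD and 137.2 to 144.5 kb in B cells. Their sums were 67.9 to 101.6 kb of H3K18ac in LPD and 36.03 to 40.9 kb in B cells, and 55.1 to 59.5 kb of H3K56ac in LPD and 29.4 to 29.9 kb in B cells. Genes of other tissues had 0 kb in both groups but for 1 LPD list of H3K18ac with 0.345 kb. The part of red cell precursors in the LPD peaks at Slc4a1, Sptb and Ank1 was not tested.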

How the data were processed

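The deposited files are lists of peak positions, 1 per ChIP-seq library, without scores. Per the submitters' processing notes Bowtie2 2.1.0, Picard, MACS2 2.0.10 and bedtools were used with the mm10 build; their settings, the read depth and the control used for peak calling are not given in the sources used here. From the deposited positions, peak length per gene and list was computed in Python 3.11.15 (pandas 2.3.3, NumPy 2.4.6, and for tests SciPy 1.17.1, with Matplotlib 3.10.9 for figures). Gene spans came from RefSeq on GRCm38.p6, and 1 bp of overlap counted. Region calls compare 2 LPD lists with 2 B cell lists of a mark. Summed lengths were compared by an exact two-sided permutation test of log2 lengths, and progenitors and CBP, with 1 list each, had no test. Values in every LPD and B cell acetylation list are given for members with a called region or with peaks in every list of a group. Members without peaks are named together. From 74 further genes, up to 5 per mark and direction with the most called sequence could be named, and others are named as chosen after their values were seen. The members and lists were chosen with earlier results of these data known. The calls and the assignment were tested on simulated data. Alternatives for the assignment were the span widened by 1 kb without the nearest gene, 1 gene per region, or a limit of 20 kb. The others were peaks of at least 500 bp, coverage of a larger part of a region, lists of equal length, shares of the list, each list left out in turn and same-numbered lists paired. Promoter words were searched on both strands of the 250 bases before each RefSeq start.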

Additional observations from a re-analysis of the deposited data

How the results depend on the processing

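Of the alternatives, 155 gave the same direction or a count within 1.5 times the reported one, 18 moved and 5 reversed. Among these settings, a share of all genes was computed only for gained and lost regions with lists of equal length. The other counts here have no such background. With lists of equal length, peaks in both H3K27ac lists lay at 9 members in LPD and 5 in B cells and lost H3K27ac regions at 2. In H3K18ac that setting gave gained regions at 1 member, lost at 6 and peaks in both LPD lists at 4, and in H3K56ac gained regions at 0 and peaks in both LPD lists at 5. The summed H3K27ac ratio reversed to 0.17 there and to 0.12 as a share of the list, and the H3K56ac ratio reversed to -0.76. Equal length keeps the widest peaks, so it removes narrow peaks from the longer lists by construction. For progenitors it gave 5 members in wild type and a summed ratio of 0.01, reversed from -0.60. With the gene span widened by 1 kb and no nearest gene, lost regions lay at 3 members in H3K27ac and 2 in H3K56ac. With peaks of at least 500 bp, lost regions lay at 1 member in H3K18ac and 0 in H3K56ac, peaks in both H3K18ac B cell lists at 5, and progenitor peaks at 3 members in Crebbp-null and 5 in wild type; the cause of these was not tested. Leaving out 1 list in turn, gained H3K27ac regions lay at 6 to 15 members and the summed H3K27ac ratio ran between -0.61 and 0.25, with 15 and 0.25 without the second LPD list. Lost H3K18ac regions lay at 3 to 5 members, with 5 without the first B cell list and 3 without the second. The rule needed 1 list fewer in both cases, and the cause of the difference was not tested. With the replicate block, pairing lists by number, the summed ratios were -0.18 (exact sign-flip p = 1), 1.57 (exact p = 0.5) and 1.07 (exact p = 0.5) in H3K27ac, H3K18ac and H3K56ac, where 2 pairs allow no p under 0.5, and nothing in the labels says that a number marks a shared mouse or day. The ratios without Bcl11a were chosen after seeing the data. The lists carry no depth, so a missing peak can be a weak signal.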
